A study of Astyanax mexicanus with 36 samples.

Results

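The genes described here encode the replicative DNA helicase of animal cells, mcm2, mcm3, mcm4, mcm5, mcm6 and mcm7, and the sliding clamp, pcna, in growing oocytes of the Mexican tetra, Astyanax mexicanus. They were found by gene symbol in the deposited count table, in any letter case, and each of the 7 symbols matched 1 gene among the 27420 genes listed. The libraries came from ovaries of Pachón cavefish, Molino cavefish and surface fish, all labelled wild type and untreated and aged about 520 days after fertilization. Right-side ovaries were used, and 4 oocyte sizes (40um, 40_100um, 100_300um, 300um) were taken from each population. Each of the 12 groups of population and size has 3 libraries, 36 altogether. It is not given whether 1 library pools several fish, nor whether 40um and 300um stand for bounds or typical diameters.

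The Mcm2 to Mcm7 proteins form a ring-shaped heterohexamer. It is loaded onto replication origins by the origin recognition complex with Cdc6 and Cdt1, and it is switched on at the start of S phase by Cdc45 and the GINS complex to unwind DNA. PCNA is the ring that tethers DNA polymerases to their template, and it also recruits enzymes of Okazaki fragment maturation, mismatch repair and DNA damage tolerance. Oocytes complete their last DNA replication before meiotic prophase and grow while arrested there, and in frogs and fish they store replication proteins and transcripts for the rapid cleavage divisions of the embryo. In the frog Xenopus, separate genes encode maternal and zygotic forms of Mcm3 and of Mcm6.

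The libraries held 2992119 to 9345334 reads assigned to genes. Levels are given as CPM, reads of a gene scaled to a common library total, after trimmed mean of M-values (TMM) scaling, which follows the reads of a gene and is not corrected for its length, so levels are compared between libraries and not between genes. Of 14 oocyte marker symbols, 11 matched a gene, and all 11 had reads at every size, among them gdf9, bmp15, figla, zar1 and ddx4. Markers of granulosa cells, blood cells, stroma and endothelium summed to 1483 to 8539 CPM in the 40um libraries, against 24.5 to 200.5 CPM at 40_100um, 95.3 to 531.9 CPM at 100_300um and 125.7 to 806.7 CPM at 300um. All 12 granulosa, 12 macrophage and granulocyte, 11 erythrocyte and 13 stroma and endothelium genes matched had reads somewhere in each size, except HBE1 at 40um, GFI1B at 40_100um, gata1a at 100_300um and lum at 100_300um and 300um, which were at 0. The 40um libraries and the 300um libraries each carry a run of library numbers of their own, while 40_100um and 100_300um share 1 run, so size and library series cannot be told apart in the first and last size steps. Every adjusted p below comes from edgeR's quasi-likelihood test with Benjamini-Hochberg adjustment over all genes tested, unless another test is named, and a gene is said to have risen or fallen where that value was below 0.05. Errors of log2 fold changes are standard errors (SE), derived from the fold change and the F statistic of that test.

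**Figure D1:**
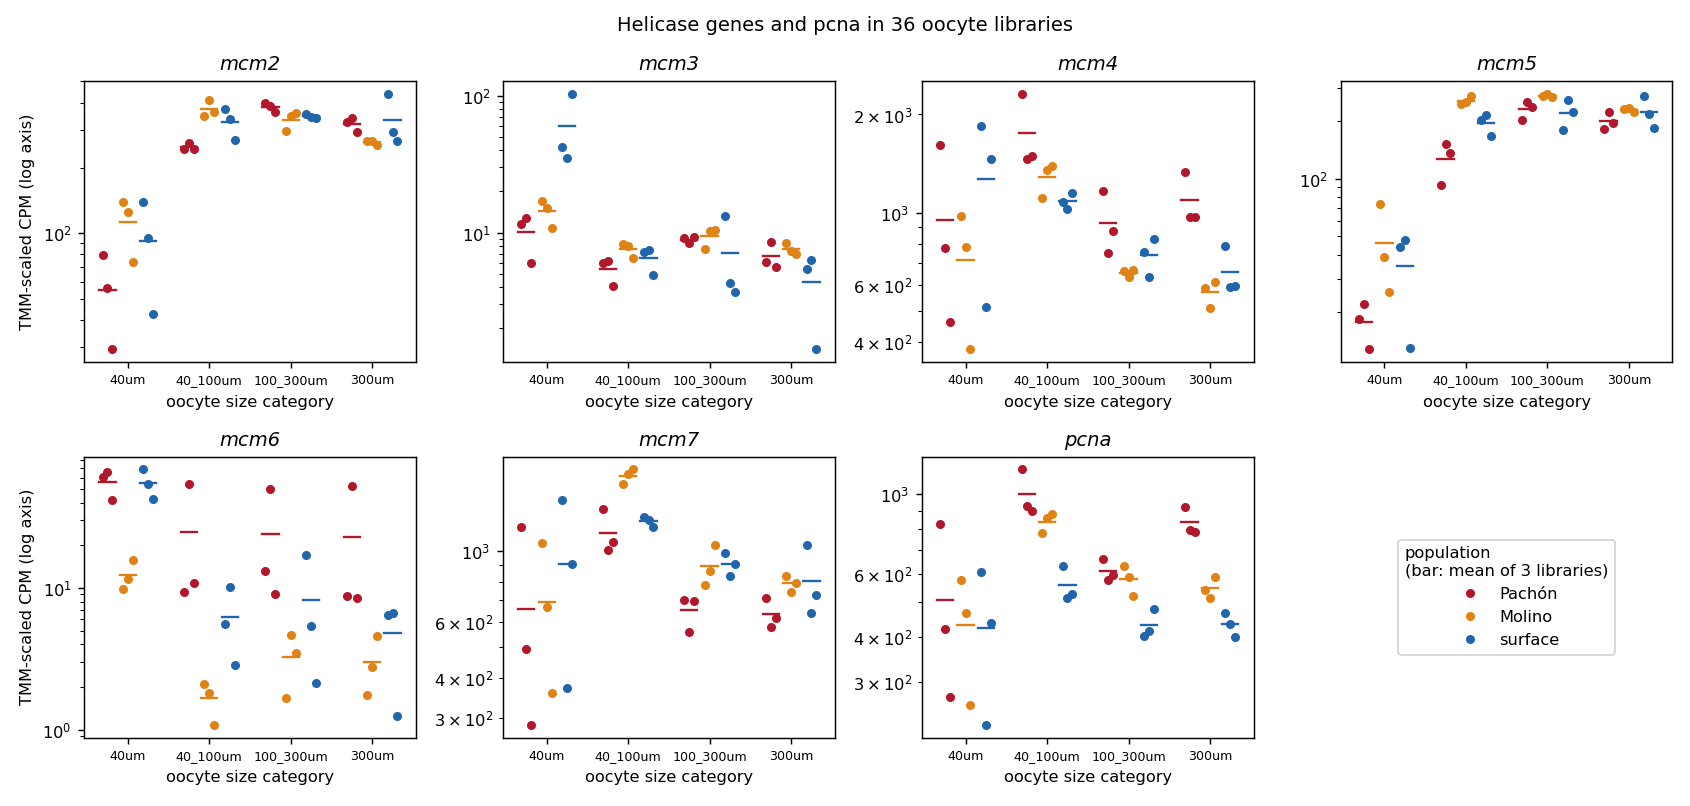
TMM-scaled CPM (log axis) of mcm2 to mcm7 and pcna in 36 libraries, by oocyte size category and population, with each point 1 library and each bar the mean of 3. mcm2 and mcm5 sit higher at 40_100um than in every 40um library, while mcm3 and mcm6 have their highest libraries, 103.3 and 68.36 CPM, at 40um.

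The helicase genes did not move as a block between the smallest oocytes and the next category. With the 3 populations averaged, mcm2, mcm4, mcm5, mcm7 and pcna were higher at 40_100um than at 40um, and mcm3 and mcm6 were lower. All 7 passed the test, in a comparison in which 73.5% of the 18259 genes tested passed. Among all genes 29.8% were higher and 43.8% lower, and the median log2 fold change over all genes was -0.32. That median moved by -0.15 with DESeq2 size factors and by 0.10 with library totals, and no member changed direction. Fewer oocytes among other cells and less RNA per oocyte cannot be told apart in these bulk libraries, and the part that the markers of other cells had in any of these steps was not tested.

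The steepest increases were those of mcm5 and mcm2, which encode the subunits that flank the gate through which the ring opens around DNA. For mcm5, the lowest, median and highest library at 40_100um had 92.15, 203.8 and 270.3 CPM, against 12.81, 25.45 and 73.4 CPM at 40um. Its log2 fold change was 2.60 ± 0.19 (SE, n = 9 libraries each, adjusted p = 2.19e-12). For mcm2, the lowest, median and highest library had 243.7, 336.2 and 410.4 CPM at 40_100um and 29.38, 79.98 and 139.5 CPM at 40um. No 40_100um library of either gene overlapped the 40um range, and mcm2 changed by 1.90 ± 0.17 (log2, SE, adjusted p = 9.92e-11). The ranges of mcm6l and mcm10 did not overlap either. Where libraries are said not to overlap, here or below, the share of all genes apart in the same way was not counted. Both genes rose within each population: mcm5 by 2.84 in Pachón, 2.47 in Molino and 2.50 in surface oocytes on the log2 scale, and mcm2 by 2.17, 1.72 and 1.82 in the same order of populations.

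The other subunit genes that rose were mcm7 and mcm4, with pcna beside them. Mcm4 and Mcm7 belong, with Mcm6, to the core of the ring that unwinds DNA on its own in vitro. For mcm7 the lowest, median and highest library had 1002, 1277 and 1795 CPM at 40_100um and 285.5, 667.6 and 1441 CPM at 40um (log2 fold change 0.85 ± 0.22, adjusted p = 0.00101). For pcna the same values were 513, 858.2 and 1174 CPM at 40_100um and 227.3, 437.6 and 827.1 CPM at 40um (0.78 ± 0.17, adjusted p = 0.000167). The ranges of both genes overlapped between the sizes. mcm4 had 1029, 1349 and 2315 CPM at 40_100um, against 381.2, 786 and 1838 CPM at 40um, and its step of 0.50 ± 0.21 (adjusted p = 0.0319) was no longer past the threshold with DESeq2 or its size factors, or without Molino 40um replicate 3 (adjusted p up to 0.0736).

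The 40um libraries of these genes were spread widely, and their order followed that of the oocyte markers. In Pachón oocytes, mcm4 had 1614, 777.8 and 460.3 CPM in 40um replicates 1, 2 and 3, where the summed oocyte markers were 15500, 4798 and 3714 CPM. In Molino oocytes mcm4 had 974.2, 786 and 381.2 CPM beside marker sums of 5925, 3778 and 1950 CPM. In surface oocytes mcm4 had 1838, 511.6 and 1457 CPM beside 9422, 1768 and 7595 CPM. The order of the 3 libraries matched that of the markers in 3 of 3 populations for mcm4, mcm7 and pcna, in 2 for mcm2, in 1 each for mcm3 and mcm5, and in 0 for mcm6. The match was not particular to these genes: it held in 3 of 3 populations for mcm10, mcm3l, MCM8 and mcmbp, and in 2 for mcm6l and mcm9. The share of all genes with such a match was not counted. This comparison was chosen after the values were seen, and the part of oocyte content in the step was not tested.

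mcm3 and mcm6, which encode the 2 remaining subunits, ran the other way. For mcm6 the lowest, median and highest library had 1.088, 5.534 and 53.87 CPM at 40_100um, against 9.8, 42.09 and 68.36 CPM at 40um, a log2 fold change of -2.39 ± 0.46 (adjusted p = 3.68e-05). For mcm3 the values were 4.063, 6.53 and 8.324 CPM at 40_100um and 6.027, 15.06 and 103.3 CPM at 40um, a log2 fold change of -1.67 ± 0.26 (adjusted p = 1.55e-06). Both genes were low in larger oocytes: mcm3 had 25 to 61 reads in a 40_100um library and mcm6 had 8 to 303. mcm6 fell in surface oocytes, with 5.534, 10.23 and 2.889 CPM at 40_100um against 68.36, 53.85 and 42.09 CPM at 40um. It also fell in Molino oocytes, with 2.122, 1.816 and 1.088 CPM at 40_100um against 9.8, 11.54 and 15.66 CPM at 40um. In each of these populations the sizes did not overlap, a separation not counted over all genes. The log2 fold changes were -3.13 ± 0.80 in surface (adjusted p = 0.00155) and -2.87 ± 0.87 in Molino oocytes (adjusted p = 0.00611). The mcm6 step did not pass in Pachón oocytes (-1.18, adjusted p = 0.175). Pachón replicate 2 had 53.87 CPM at 40_100um and 65.44 CPM at 40um.

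In the fit of all 36 libraries the fall of mcm3 was larger in surface oocytes than in either cave population, but many alternatives did not keep that call. In Pachón oocytes mcm3 had 6.038, 6.223 and 4.063 CPM at 40_100um and 11.61, 12.74 and 6.027 CPM at 40um. In Molino oocytes it had 8.324, 8.02 and 6.53 CPM at 40_100um and 17.1, 15.06 and 10.77 CPM at 40um. In surface oocytes it had 7.247, 7.427 and 4.91 CPM at 40_100um and 42.48, 35.11 and 103.3 CPM at 40um. The populations lay close together at 40_100um and apart at 40um, where all 3 surface libraries exceeded all cave libraries. How many of all genes did so was not counted. The log2 step was -0.89 ± 0.46 in Pachón (adjusted p = 0.0967), -0.91 ± 0.44 in Molino (adjusted p = 0.0758) and -3.20 ± 0.46 in surface oocytes (adjusted p = 2.57e-06). The difference between steps was 2.31 ± 0.64 for Pachón minus surface (adjusted p = 0.025) and 2.29 ± 0.62 for Molino minus surface (adjusted p = 0.0346). mcm3 was the 1 member called in each of these differences, in which 7.13% and 3.57% of all genes passed. In the same differences for the second and the last step edgeR called 0 members, with 0 at an unadjusted p below 0.05 and 0 by DESeq2, where 0.011% and 0% of genes passed for Pachón minus surface and 0% in both steps for Molino minus surface. Without surface 40um replicate 3, at 103.3 CPM, the differences were 1.61 (adjusted p = 0.114) and 1.55 (adjusted p = 0.188). The Pachón minus surface call was also lost without Pachón 40um replicate 3, surface 40_100um replicate 3, or Pachón 40_100um replicate 1 or 2, with differences from 1.94 to 2.18. The Molino minus surface call was lost in 9 of 12 libraries left out: surface 40um replicate 3, Molino 40um replicates 2 and 3, and every 40_100um library of both populations. With that surface library kept, its difference ran from 2.11 to 2.43. When only the 2 sizes compared were fitted, neither difference was called.

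Within single populations the counts of members called differed. In Pachón oocytes 4 members rose and 0 fell in the first step, where 57.8% of all genes passed (24.7% higher, 33.1% lower). With the replicate number as a block, mcm7 (0.93, adjusted p = 0.0203) and mcm6 (-1.75, adjusted p = 0.00141) passed there as well, so that 5 rose and 1 fell. The count of all genes called there ran from 8756 to 11680 over all settings. In Molino oocytes 5 rose and 1 fell, where 59.4% passed (23.3% higher, 36.1% lower). In surface oocytes 2 rose, mcm2 and mcm5, and 2 fell, mcm3 and mcm6, where 55% passed (19.3% higher, 35.7% lower). For mcm4 the log2 step was 0.89 ± 0.36 in Pachón (adjusted p = 0.0376), 0.84 ± 0.36 in Molino (adjusted p = 0.046) and -0.23 ± 0.36 in surface oocytes (adjusted p = 0.613), and the differences of the steps did not pass (adjusted p = 0.183 and 0.258). The mcm4 call was lost in 6 of 13 alternatives in Pachón and in 7 of 12 in Molino oocytes. In Molino oocytes the pcna call was lost without 40um replicate 3 (adjusted p = 0.0651). For pcna the step was 0.98 ± 0.30 in Pachón, 0.96 ± 0.30 in Molino and 0.40 ± 0.29 in surface oocytes, where both cave populations passed and surface oocytes did not, and the differences again did not pass (adjusted p = 0.404 and 0.505).

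**Figure D2:**
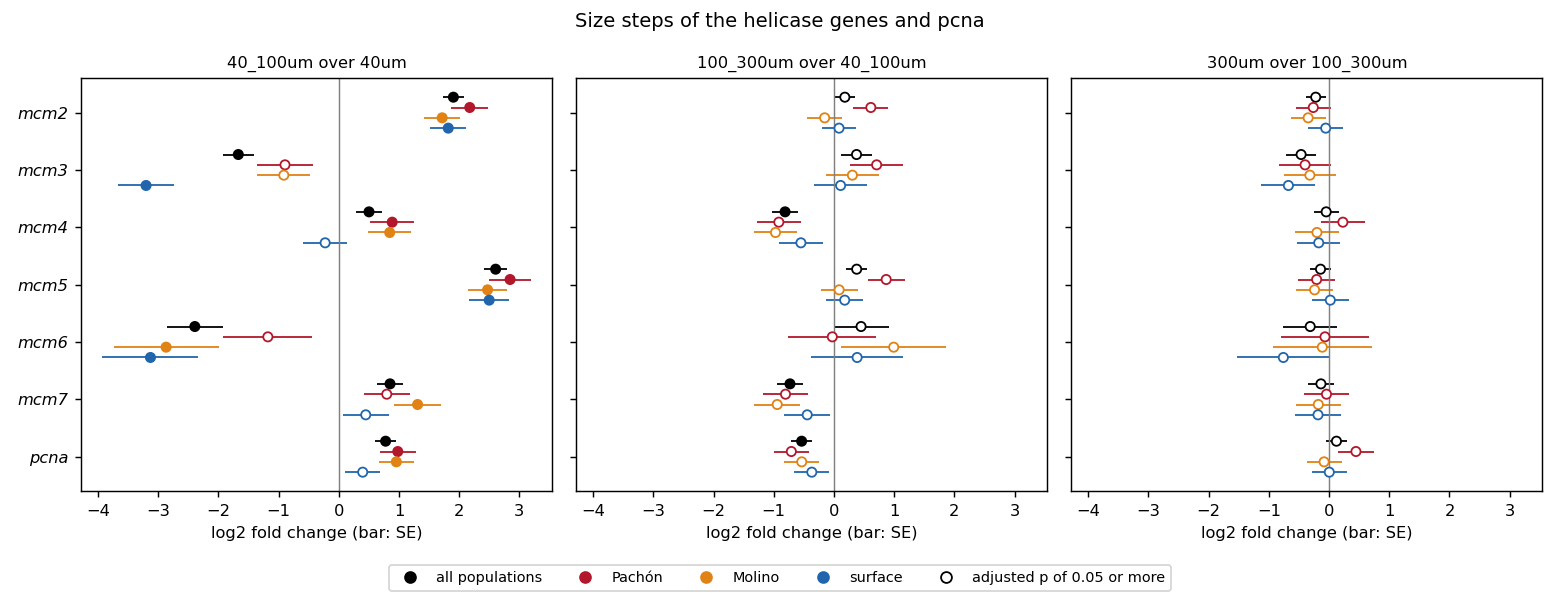
Log2 fold change of each gene in 3 size steps (bars, SE), for all populations averaged and for Pachón, Molino and surface oocytes, with filled points where the adjusted p was below 0.05. In the first step mcm5 stands at 2.60 and mcm6 at -2.39, in the second mcm4, mcm7 and pcna lie below 0, and in the last no filled point remains.

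In the second step, 100_300um over 40_100um, mcm4, mcm7 and pcna fell. mcm4 had 634.3, 750.5 and 1168 CPM (lowest, median, highest library) at 100_300um, against 1029, 1349 and 2315 CPM at 40_100um. mcm7 had 556.6, 832.9 and 1040 CPM at 100_300um, against 1002, 1277 and 1795 CPM at 40_100um, and pcna 402.8, 578.2 and 661.5 CPM, against 513, 858.2 and 1174 CPM. Pooled over populations the ranges overlapped, but within each of the 3 populations the 100_300um libraries lay below all 40_100um libraries for each of these genes. The same held for mcm6l, whose step did not pass (adjusted p = 0.0847), and the share of all genes apart in this way was not counted. The log2 fold changes were -0.81 ± 0.21 for mcm4 (adjusted p = 0.0038), -0.73 ± 0.22 for mcm7 (adjusted p = 0.0114) and -0.54 ± 0.17 for pcna (adjusted p = 0.0155). Thus 3 of 7 members fell, where 33% of all genes passed in either direction, 24.6% higher and 8.37% lower.

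That step depended on scaling. The median log2 fold change over all genes was 0.19 with TMM and 0.40 with library totals, a shift of 0.21. The share of called genes that were higher was 74.6% with TMM, 59.8% with DESeq2 size factors and 94.3% with library totals. All 3 members kept negative log2 fold changes under each scaling, but mcm7 (adjusted p = 0.0625) and pcna (adjusted p = 0.137) did not pass with library totals. The other 4 members had log2 fold changes of 0.18 (mcm2), 0.38 (mcm3), 0.38 (mcm5) and 0.45 (mcm6), none of them past the threshold. Within single populations 0 of 7 members passed in this step, where 8.41% of all genes passed in Pachón, 15.4% in Molino and 3.91% in surface oocytes. At an unadjusted p below 0.05 there were 5, 2 and 0 members, beside 4153, 5373 and 3376 of all 18259 genes. DESeq2 called 2, 3 and 0 members, all lower. With library totals 2 were called in Pachón oocytes, both higher. When only the 2 sizes compared were fitted, 5 members were called in Pachón oocytes, 2 higher and 3 lower. In Molino and in surface oocytes that fit called 3 each, all lower. Over all settings the calls among all genes in this step reached 4355 in Pachón, 5413 in Molino and 2113 in surface oocytes. Those of the main fit were 1535, 2809 and 714, and shares for each alternative are not given here. Libraries with the same replicate number deviated together between these sizes, with correlations of 0.376 to 0.408 in Pachón, 0.0386 to 0.32 in Molino and 0.381 to 0.596 in surface oocytes. With that number as a block, mcm4 (-0.90, adjusted p = 0.0421) was lower and mcm5 (0.88, adjusted p = 0.0331) higher in Pachón oocytes. In Molino oocytes mcm4 (-0.98, adjusted p = 0.0195) and mcm7 (-0.94, adjusted p = 0.0447) were lower, and in surface oocytes the block left 0 members called.

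Between 100_300um and 300um oocytes no member passed the test. The log2 fold changes lay between -0.46 for mcm3 and 0.12 for pcna, and edgeR called 0 of 7 members, where 0.4% of all genes passed. There were 0 members with an unadjusted p below 0.05, and DESeq2 called 0. The 95% interval of the log2 fold change, by a normal approximation from the SE, was -0.55 to 0.11 for mcm2 and -0.96 to 0.03 for mcm3. In single populations 0 members passed in this step, with 0 at an unadjusted p below 0.05 and 0 by DESeq2, where 0% of genes passed in Pachón, 0.00548% in Molino and 0% in surface oocytes. Of all genes 647, 464 and 745 had an unadjusted p below 0.05, in the same order of populations.

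The genes named mcm3l and mcm6l carried more reads than mcm3 and mcm6 in every library. In reads, mcm3l exceeded mcm3 by a median ratio of 69.5 at 40_100um (range 43.9 to 88.4) against 12.2 at 40um (range 2.34 to 39.3). For mcm6l over mcm6 the median ratio was 63.2 at 40_100um (range 10.7 to 432) against 2.55 at 40um (range 1.42 to 23.5). These ratios are not corrected for gene length, so only their change is compared. The mean log2 ratio was higher at 40_100um by 2.62 for the mcm3 pair and by 4.59 for the mcm6 pair, and higher in each of the 3 populations. The pairs were set side by side after their values were seen, so these ratios are given as a description, without a p-value.

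mcm6l itself rose to a mean of 460.4 CPM at 40_100um, against 124.8 CPM at 40um (log2 fold change 1.86 ± 0.18, adjusted p = 3.53e-10). mcm3l averaged 441.5 CPM at 40_100um and 248.2 CPM at 40um (0.79 ± 0.25, adjusted p = 0.00533). With the populations averaged, the like-named genes thus rose where mcm3 and mcm6 fell. The mcm3l libraries overlapped between the sizes. Its log2 step did not pass in surface (0.31, adjusted p = 0.556) or Pachón oocytes (0.82, adjusted p = 0.102). The fall of mcm3 did not pass in Pachón or Molino oocytes. An opposite course of mcm3 and mcm3l was thus not shown in any single population. The mcm3l:mcm3 read ratio had medians of 36.1 at 100_300um and 69.5 at 40_100um, and the mcm6l:mcm6 ratio 52.7 at 100_300um and 63.2 at 40_100um. In the RefSeq gene table of the AstMex3 surface fish assembly, mcm3 and mcm3l lie on the same chromosome with 19 gene entries between them, and mcm6 and mcm6l lie on different chromosomes. Reads that fit more than 1 place, 6.76% to 29.5% of a library, were not assigned to genes. Reads shared by near-identical stretches of a pair may thus be missing from both. Such reads made up 13% to 29.5% of a library at 40um, against 6.76% to 10.4% at 40_100um. The levels within a pair, and the change of their ratio between these sizes, are uncertain to that extent.

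**Figure D3:**
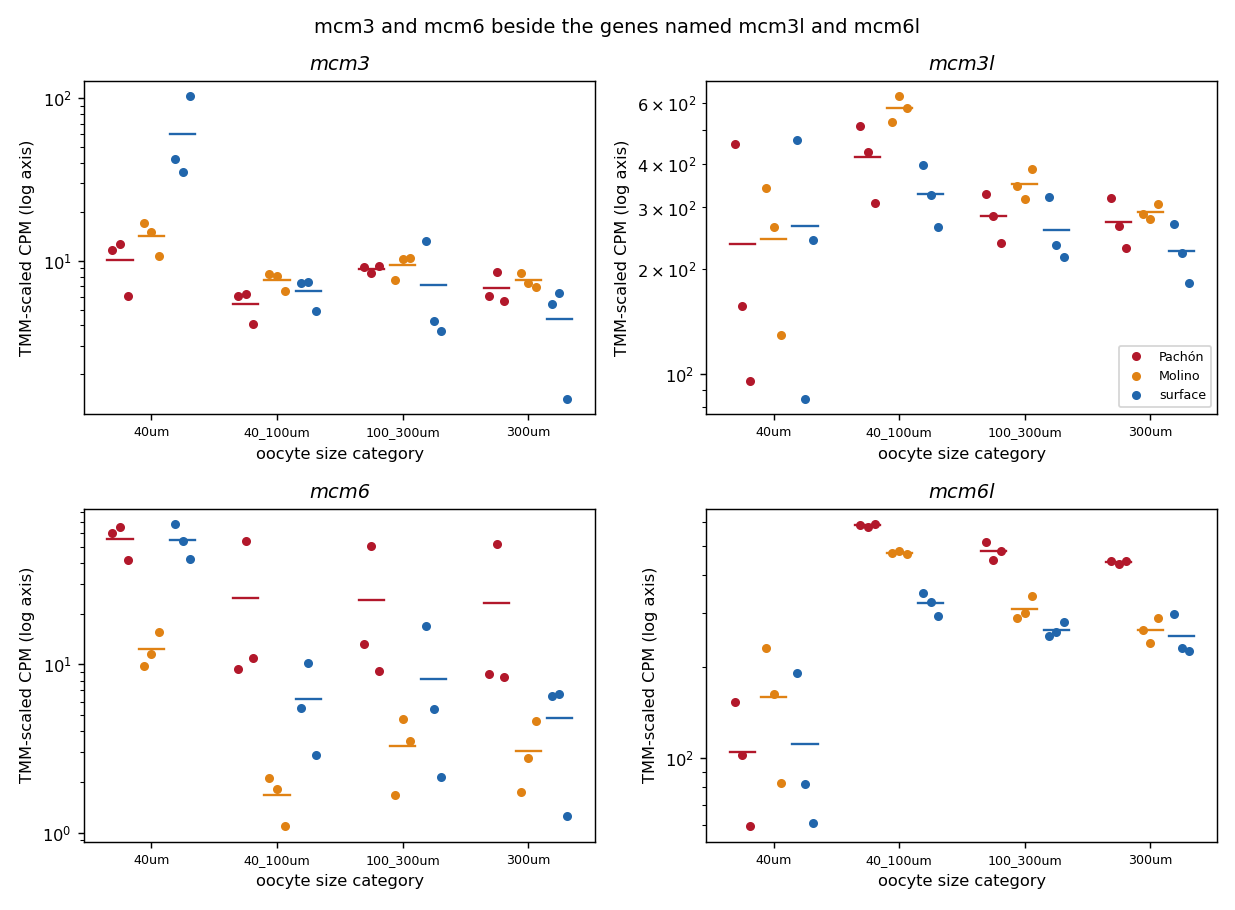
TMM-scaled CPM (log axis) of mcm3, mcm3l, mcm6 and mcm6l in 36 libraries by size category and population, with each point 1 library and each bar the mean of 3. mcm3 and mcm6 fall to means of 6.531 and 10.86 CPM at 40_100um, where mcm3l and mcm6l average 441.5 and 460.4 CPM.

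Population differences were tested separately at each size, on 15917, 14377, 15494 and 15214 genes from the smallest to the largest. pcna was the member that most often separated cave from surface oocytes. At 40_100um it had 1174, 925.9 and 899.9 CPM in Pachón, 780.9, 858.2 and 879.4 CPM in Molino and 632.3, 513 and 528 CPM in surface libraries. At 100_300um it had 661.5, 578.2 and 597.3 CPM in Pachón, 631.9, 587.6 and 519.1 CPM in Molino and 402.8, 414.1 and 480 CPM in surface libraries. At 300um it had 923.7, 795 and 785.8 CPM in Pachón, 540.5, 514.8 and 587.4 CPM in Molino and 467.2, 434.6 and 399 CPM in surface libraries. At each of these sizes every cave library exceeded every surface library. The share of all genes apart in this way was not counted. At 40_100um the summed oocyte markers were 10960, 7823 and 8153 CPM in Pachón and 6553, 5674 and 6160 CPM in surface libraries. At 300um they were 6009, 4892 and 4809 CPM against 4208, 3094 and 3794 CPM, and at 100_300um they overlapped. Molino sums overlapped surface sums at each of these sizes. The part of the markers in the pcna differences was not tested.

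The Pachón over surface log2 fold change of pcna was 0.75 ± 0.13 at 40_100um (adjusted p = 0.000576), 0.46 ± 0.13 at 100_300um (adjusted p = 0.0252) and 0.95 ± 0.11 at 300um (adjusted p = 0.000185). For Molino over surface it was 0.58 ± 0.13 at 40_100um (adjusted p = 0.0037), 0.37 ± 0.13 at 100_300um (adjusted p = 0.0777) and 0.33 ± 0.11 at 300um (adjusted p = 0.0634), so that it passed at 40_100um alone. Pachón over Molino passed at 300um (0.62 ± 0.11, adjusted p = 0.00156). Of all genes, 33.2%, 19.9% and 32.4% passed in Pachón over surface oocytes at 40_100um, 100_300um and 300um. The share was 29.5% for Molino over surface at 40_100um and 34.5% for Pachón over Molino at 300um. At 40um the populations overlapped, with a Pachón over surface value of 0.29 ± 0.55 (adjusted p = 0.821). The Pachón over surface difference passed in 13 of 13 alternatives at 40_100um and 14 of 14 at 300um, and in 10 of 14 at 100_300um, where it was lost in a fit of all 36 libraries and without surface replicate 2 or Pachón replicate 1 or 3.

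mcm4 was higher in Pachón oocytes at several sizes. At 300um it had 1336, 972.2 and 970.2 CPM in Pachón, 585.4, 508.8 and 613.6 CPM in Molino and 788.6, 590.5 and 595.5 CPM in surface libraries. All Pachón libraries thus lay above the others, a separation not counted over all genes. The log2 fold change there was 0.74 ± 0.17 for Pachón over surface (adjusted p = 0.00778) and 0.96 ± 0.17 for Pachón over Molino (adjusted p = 0.00175). At 40_100um it had 2315, 1465 and 1493 CPM in Pachón against 1074, 1029 and 1149 CPM in surface libraries (0.60 ± 0.15, adjusted p = 0.00903). At 100_300um Pachón exceeded Molino oocytes by 0.53 ± 0.17 (adjusted p = 0.0399), a call lost in 6 of 13 alternatives. Molino over surface passed at no size, with log2 fold changes from -0.91 to 0.23.

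mcm7, mcm2 and mcm5 differed in other directions. At 40_100um mcm7 had 1347, 1002 and 1068 CPM in Pachón, 1615, 1743 and 1795 CPM in Molino and 1277, 1248 and 1190 CPM in surface libraries. It was lower in Pachón than in Molino oocytes (-0.67 ± 0.11, adjusted p = 0.000516) and higher in Molino than in surface oocytes (0.46 ± 0.11, adjusted p = 0.008). At 100_300um it was lower in Pachón than in surface oocytes (-0.52 ± 0.14, adjusted p = 0.0272) and than in Molino oocytes (-0.43 ± 0.14, adjusted p = 0.0499), calls lost in 6 of 14 and 9 of 13 alternatives.

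mcm5 at 40_100um had 92.15, 152.2 and 136.3 CPM in Pachón, 245.8, 252.7 and 270.3 CPM in Molino and 203.8, 215.3 and 167.7 CPM in surface libraries. All Pachón libraries lay below all others, by -0.69 ± 0.17 against surface (adjusted p = 0.00849) and -1.08 ± 0.17 against Molino oocytes (adjusted p = 0.000413). This separation was also not counted over all genes. mcm2 was also lowest in Pachón oocytes at that size, with 243.7, 261.2 and 245.7 CPM in Pachón, 345.1, 410.4 and 360.1 CPM in Molino and 371.8, 336.2 and 269.5 CPM in surface libraries. Its log2 fold changes were -0.46 ± 0.13 for Pachón over surface (adjusted p = 0.015, lost in 4 of 13 alternatives) and -0.65 ± 0.13 for Pachón over Molino (adjusted p = 0.00163). Neither gene passed in any population comparison at the other 3 sizes.

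Counted by comparison, Pachón over surface had 1, 4, 2 and 2 members called from the smallest to the largest size, where 2.88%, 33.2%, 19.9% and 32.4% of all genes passed. Molino over surface had 1, 2, 0 and 0, where 0.521%, 29.5%, 14.6% and 16.5% passed. The 0 counts at 100_300um and 300um stand beside 1 member each at an unadjusted p below 0.05 in edgeR and 1 each called by DESeq2. Among all genes 4435 of 15494 and 4597 of 15214 had such an unadjusted p in edgeR. Pachón over Molino had 1, 4, 3 and 3, where 3.18%, 37.6%, 25% and 34.5% passed. Its 3 calls at 100_300um came down to 0 or 1 when any 1 of the 6 libraries was left out. At the same size the Pachón over surface count moved by over 1.5 times in 4 of 6 such fits, and at 40um the counts did so in 5, 6 and 3 of 6 for Pachón over surface, Molino over surface and Pachón over Molino. Pachón over surface and Molino over surface share the surface libraries. In a fit of all 36 libraries, in which all sizes share the estimate of spread, 8 of these 23 calls remained and 15 were lost. Those that remained were pcna in Pachón over surface at 40_100um and 300um, mcm3 in Pachón over surface at 40um, mcm5 in Pachón over Molino at 40_100um, and mcm6 in Pachón over Molino at all 4 sizes. With library totals in place of TMM, the share of called genes that were higher was 52.6% against 70.1% for Pachón over surface, 53.3% against 42.2% for Molino over surface and 39.3% against 58.9% for Pachón over Molino at 40um. It was 34.9% against 47.9% for Molino over surface at 40_100um, and 36.9% against 49.2% for Pachón over surface and against 53.8% for Pachón over Molino at 300um. No member that was called changed direction under either scaling alternative.

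**Figure D4:**
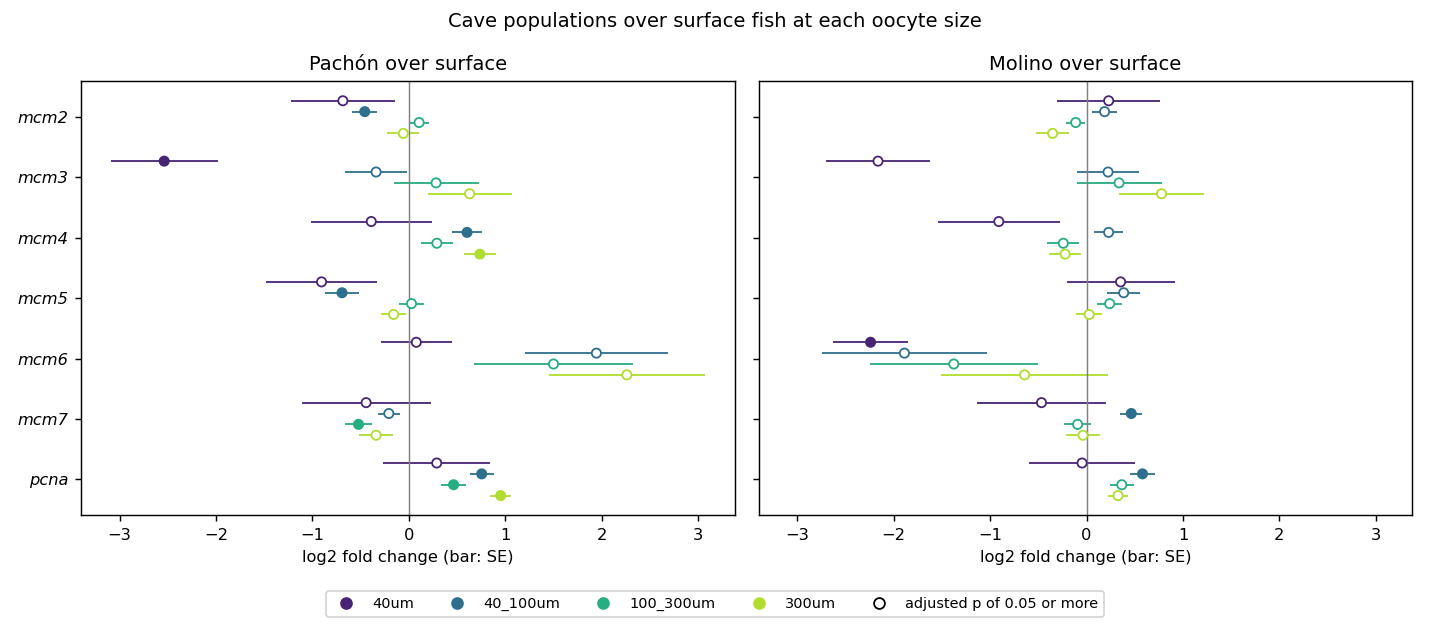
Log2 fold change of each gene in Pachón over surface and Molino over surface oocytes at 4 sizes (bars, SE), with filled points where the adjusted p was below 0.05. pcna lies at 0.75, 0.46 and 0.95 in Pachón over surface at the 3 larger sizes, and mcm3 lies at -2.54 at 40um.

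mcm6 and mcm3 were the members called at 40um. mcm6 had 60.11, 65.44 and 41.81 CPM in Pachón, 9.8, 11.54 and 15.66 CPM in Molino and 68.36, 53.85 and 42.09 CPM in surface libraries at 40um. Molino thus lay below both others without overlap, a separation not counted over all genes. The log2 fold change was -2.24 ± 0.39 for Molino over surface (adjusted p = 0.0413) and 2.32 ± 0.39 for Pachón over Molino (adjusted p = 0.0146). mcm3 at 40um was lower in Pachón than in surface oocytes by -2.54 ± 0.55 (adjusted p = 0.0408), and its Molino over surface value of -2.16 ± 0.54 did not pass (adjusted p = 0.11). The mcm6 calls were lost in 6 of 12 alternatives for Molino over surface and in 4 of 13 for Pachón over Molino, and the mcm3 call in 6 of 13. Reads assigned to genes made up 27.1% to 51.8% of a library at 40um, against 51.1% to 71.5% at the larger sizes. Markers of other cells summed at 40um to 7406, 8539 and 8424 CPM in Molino libraries. They summed to 2223, 3378 and 5535 CPM in Pachón and 1483, 7207 and 5103 CPM in surface libraries. The part of either in the 40um differences was not tested.

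In larger oocytes, mcm6 was set apart by Pachón replicate 2. At 40_100um the 3 Pachón replicates had 9.345, 53.87 and 10.89 CPM, at 100_300um they had 13.15, 50.18 and 9.131 CPM, and at 300um they had 8.724, 51.96 and 8.436 CPM. Replicate 2 was thus 5.33, 4.5 and 6.06 times the mean of the other 2 libraries at those sizes, and 1.28 times at 40um. Molino libraries ranged from 1.088 to 4.7 CPM over the 3 larger sizes. Among 18259 genes, 39 were over 3-fold higher in Pachón replicate 2 than in both other replicates at all 3 larger sizes, and mcm6 was the 1 member among them. Such counts were not particular to that replicate, with 69 genes for surface replicate 1, 53 for Molino replicate 3 and 2 to 29 for the others, none of them a member. The criterion was chosen after the values were seen.

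With all libraries, mcm6 was higher in Pachón than in Molino oocytes by 3.83 ± 0.85 at 40_100um (adjusted p = 0.00753), 2.88 ± 0.88 at 100_300um (adjusted p = 0.042) and 2.90 ± 0.85 at 300um (adjusted p = 0.0274). Without Pachón replicate 2 the values were 2.48 (adjusted p = 0.00315), 1.79 (adjusted p = 0.126) and 1.51 (adjusted p = 0.0923). These calls were lost in 8 of 13 alternatives at 100_300um and in 8 of 14 at 300um, and in 0 of 13 at 40_100um. The Pachón over surface values of 1.94 at 40_100um (adjusted p = 0.074) and 2.26 at 300um (adjusted p = 0.0608) were 0.61 (adjusted p = 0.364) and 0.87 (adjusted p = 0.312) without it. Leaving that replicate out also moved the mcm6 step from 40um within Pachón oocytes, which was -1.18 ± 0.74 (adjusted p = 0.175) with it and -2.15 (adjusted p = 0.014) without it. Whether the same numbers at different sizes come from the same fish is not given in the labels.

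**Figure D5:**
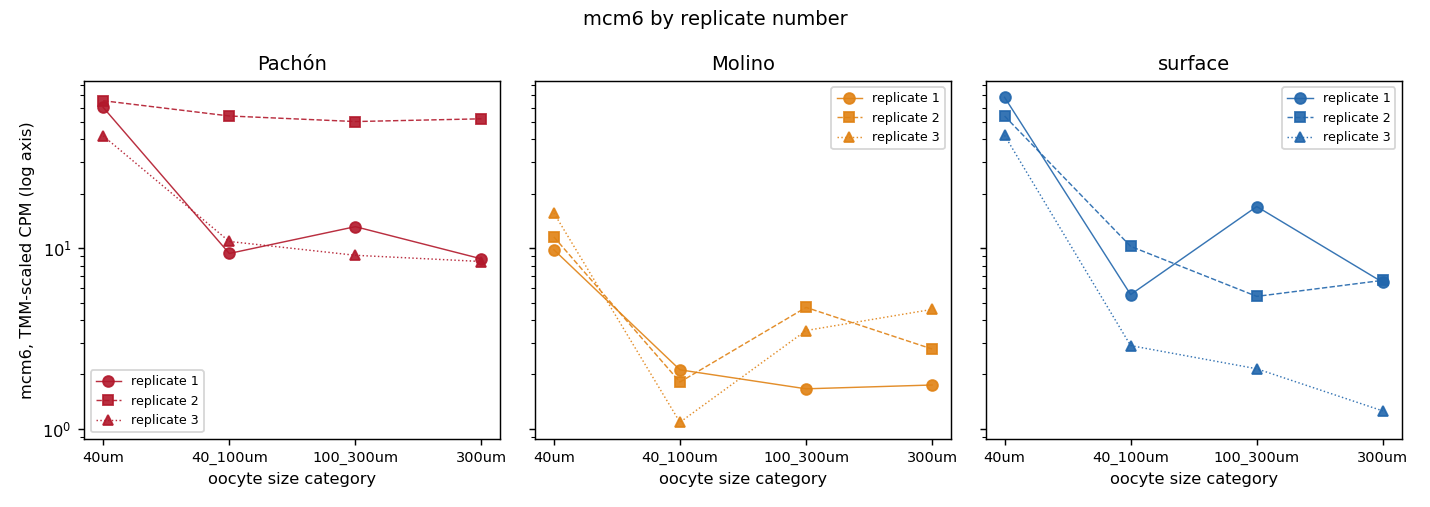
mcm6 in TMM-scaled CPM (log axis) by size category in Pachón, Molino and surface oocytes, with lines joining libraries of the same replicate number. Pachón replicate 2 stays between 50.18 and 65.44 CPM at all sizes, while Pachón replicates 1 and 3 lie between 8.436 and 13.15 CPM at the 3 larger sizes.

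Over the 12 groups, the mean of the highest group was 33.3 times that of the lowest for mcm6 (Pachón 40um over Molino 40_100um), 15.4 times for mcm5 (Molino 100_300um over Pachón 40um) and 13.7 times for mcm3 (surface 40um over surface 300um). It was 6.93 times for mcm2, 3.09 for mcm4, 2.71 for mcm7 and 2.36 for pcna. Most neighbours in these orders were not apart: in 9 of 11 neighbouring pairs of groups the libraries overlapped for each of mcm2, mcm3, mcm4, mcm5, mcm7 and pcna, and in 11 of 11 for mcm6. The highest pcna group was Pachón 40_100um, at 999.9 ± 151.2 CPM (SD, n = 3). The highest mcm7 group was Molino 40_100um, at 1718 ± 92.49 CPM, and for mcm4 it was Pachón 40_100um, at 1758 ± 482.7 CPM.

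Over the 12 group means, which share libraries, scaling and the 40um markers of other cells, mcm2 and mcm5 followed each other most closely among the members (Pearson r = 0.986 of log2 CPM). mcm5 and mcm6 ran against each other most (r = -0.792), and mcm3 and mcm6 had r = 0.542. Among 13464 genes with a symbol, the patterns most like mcm5 were those of hells, POLQ and cactin (r = 0.996, 0.995 and 0.995), and most like mcm2 those of iqgap3, pdia4 and pogzb (0.994, 0.994 and 0.993). For pcna they were ndufb9, pcca and nup93 (0.974, 0.967 and 0.961), for mcm4 cpsf6, alg13 and kpna2 (0.974, 0.967 and 0.965) and for mcm7 hibadhb, yes1 and ppp2r1bb (0.949, 0.941 and 0.936). For mcm3 they were ANO9, cd40lg and jph1b (0.905, 0.892 and 0.887), and snx7 and NT5M were among those most like mcm6 (0.963 each). These are descriptions over 12 points with no test.

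Many of the other replication genes also rose in the first step, in which 73.5% of all genes passed, 29.8% higher and 43.8% lower. Of 10 origin licensing genes 9 were higher at 40_100um than at 40um and 0 lower, with a median log2 fold change of 0.97. Examples were orc1, the largest subunit of the origin recognition complex (504.2 against 150.2 CPM, log2 fold change 1.72 ± 0.19), and mcmbp, which binds Mcm complexes (189.9 against 99.45 CPM, 0.99 ± 0.15). Of 15 genes of helicase activation and the fork, 14 were higher and 0 lower (median 1.47), among them the GINS subunit gins2 (1.96 ± 0.17) and topbp1, which helps load Cdc45 (1.85 ± 0.11). All genes tested had a median of -0.32 in this comparison, so these medians stood above it.

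Replicative polymerase genes were mostly higher, and the clamp loader and nucleotide supply lists were called in smaller shares. Of 11 polymerase and primase genes 9 were higher and 1 lower (median 1.23). pole, the catalytic subunit of the leading strand polymerase, had 366.5 CPM at 40_100um against 53.2 CPM at 40um (2.85 ± 0.16), and the 1 that fell was pold4, a small accessory subunit (-1.74 ± 0.24). Of 17 clamp loader and lagging strand genes 10 were higher and 0 lower (median 0.55), with rfc1, the large subunit of the loader that places PCNA on DNA, at 2.21 ± 0.14. Of 12 nucleotide supply genes 6 were higher and 1 lower (median 0.39). In both lists the share that passed in either direction was below the 73.5% of all genes, while the share that was higher was above 29.8%. In that list rrm1, the large subunit of ribonucleotide reductase, rose by 1.81 ± 0.16, and rrm2b, the p53-induced small subunit in mammals, fell by 2.08 on the log2 scale.

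Among the relatives of the helicase genes, mcm9 (1.69 ± 0.18) and MCM8 (0.98 ± 0.22) also rose, Mcm8 and Mcm9 being a meiotic and repair helicase pair. So did mcm10 (1.23 ± 0.17), a factor of helicase activation that shares the name but is not related to the ring subunits. A further list held genes with mcm in their names other than mcm2 to mcm7. It holds mcm3l and mcm6l, and also mcmbp, mcm10 and MCM3AP, which are no paralogues. Among its 8 genes 7 were higher and 0 lower. Of these, mcmbp is also counted under licensing and mcm10 under helicase activation. A list of genes of dividing cells was mixed, with 20 of 34 higher and 9 lower (median 0.62). It included cdk1, the mitotic kinase (1.98 ± 0.17), on the higher side, and cdk6 (-6.06 ± 0.53) and ccnd1 (-3.33 ± 0.44), a kinase and a cyclin of G1, on the lower side.

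In the second step, where 33% of all genes passed, 24.6% higher and 8.37% lower, the lists differed. Of the 10 licensing genes 1 was higher, orc5 (0.45 ± 0.14), and 1 lower, gmnn, the inhibitor of Cdt1 (-0.70 ± 0.24). Of 15 genes of helicase activation and the fork 2 were higher and 1 lower, and in the polymerase list (11 genes) and the clamp loader list (17 genes) 1 each was higher and 0 lower. Nucleotide supply genes were called about as often as all genes, with 2 of 12 higher, impdh1b (0.30 ± 0.11) and rrm2b (0.66 ± 0.24), and 2 lower, impdh2 (-0.50 ± 0.14) and dut (-0.58 ± 0.21). Of the 34 genes of dividing cells 12 were higher and 6 lower, among them tfdp1a (1.81 ± 0.18), a partner of E2F factors, and ccnb2 (-0.76 ± 0.24), a mitotic cyclin. The median log2 fold changes were -0.29 for licensing, -0.08 for helicase activation, -0.21 for polymerases and -0.29 for clamp loaders, against 0.19 over all genes. In the last step 0 genes of any of these lists passed, where 73 of all genes did, and 1165 had an unadjusted p below 0.05.

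Genes whose products bind or modify PCNA, or belong to complexes that do, were also followed. The list of 13 also holds cdkn1ba and cdkn1bb, which encode inhibitors of the p27 type that are not known as PCNA binders. In the first step 8 of 13 were higher and 3 lower (median 1.17), and without those 2 genes 8 of 11 were higher and 2 lower. In the second step 2 of 13 were higher, SHPRH (1.28 ± 0.11) and cdkn1a (0.78 ± 0.20), and 2 lower, dnmt1 (-0.51 ± 0.20) and cdkn1bb (-0.49 ± 0.15). uhrf1, which brings the maintenance DNA methyltransferase to replicated DNA, rose by 1.52 ± 0.18 in the first step. The cyclin-dependent kinase inhibitor genes cdkn1a (-1.94 ± 0.20) and cdkn1ba (-5.00 ± 0.36) fell in that first step. The third that fell with the populations averaged was HLTF, which encodes a ubiquitin ligase that extends ubiquitin chains on PCNA. Its log2 step was -3.66 ± 0.49 in Pachón (adjusted p = 5.01e-07) and -3.63 ± 0.52 in Molino (adjusted p = 1.82e-06), and in surface oocytes, whose libraries overlapped between the sizes, it was -0.67 ± 0.41 (adjusted p = 0.171). The differences of the steps were -2.99 for Pachón minus surface (adjusted p = 0.00345) and -2.96 for Molino minus surface oocytes (adjusted p = 0.00944). At 300um HLTF had 0.6609, 1.956 and 1.789 CPM in Pachón, 2.067, 2.441 and 3.056 CPM in Molino and 32.06, 25.13 and 24.35 CPM in surface libraries. At 40_100um it had 2.444, 1.6 and 1.625 CPM in Pachón, 0.3264, 1.665 and 0.6802 CPM in Molino and 36.1, 25.81 and 29.17 CPM in surface libraries. All cave libraries lay below all surface libraries at the 3 larger sizes, a separation not counted over all genes.

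The log2 fold changes of HLTF were -4.19 ± 0.35 for Pachón over surface and -3.42 ± 0.33 for Molino over surface at 300um (adjusted p = 2.63e-05 and 7.47e-05). At 40um it had 14.45, 22.84 and 35.79 CPM in Pachón, 6.725, 12.05 and 15.34 CPM in Molino and 81.38, 21.12 and 41.69 CPM in surface libraries, where Pachón overlapped surface oocytes and neither cave population passed. In Pachón oocytes pcna was thus higher and HLTF lower than in surface oocytes at each of the 3 larger sizes. Molino oocytes also had lower HLTF at these sizes (-5.07, -3.98 and -3.42 against surface), while pcna passed there at 40_100um alone. A link between the 2 genes was not tested.

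At 300um 32.4% of all genes passed in Pachón over surface oocytes, 15.9% higher and 16.5% lower, and genes of the other replication lists were among them. Of 12 nucleotide supply genes 8 were higher and 0 lower (median log2 fold change 0.61, against -0.03 over all genes), with tk1, thymidine kinase, at 101.4 CPM in Pachón against 59.51 CPM in surface oocytes (0.77 ± 0.09). Of 11 polymerase genes 5 were higher and 0 lower (median 0.46), with pola2, the accessory subunit of polymerase alpha, at 254.5 against 151.9 CPM (0.75 ± 0.12). Of 17 clamp loader and lagging strand genes 7 were higher and 1 lower, RPA2, a subunit of the single-strand binding protein (-1.37 ± 0.22). The PCNA partners went both ways: without cdkn1ba and cdkn1bb, 4 of 11 were higher and 3 lower. Counts of the licensing, helicase activation and dividing cell lists in this comparison are not given here. mcm6l was higher in Pachón than in surface oocytes at 40_100um, 100_300um and 300um, by 0.77 ± 0.11, 0.82 ± 0.10 and 0.82 ± 0.13. Molino oocytes also had higher mcm6l than surface oocytes at 40_100um (0.55 ± 0.105, adjusted p = 0.00178). In Molino over surface oocytes at 300um, where 16.5% of all genes passed (7.35% higher, 9.13% lower), 2 of 12 nucleotide supply genes were higher and 0 lower, while in the polymerase and the clamp loader lists 1 gene each was higher and 1 lower.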

How the data were processed

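Oocyte RNA was sequenced in bulk. The authors deposited counts of reads per gene and a signal table of scaled CPM. That deposited signal equals the TMM-scaled CPM recomputed here from the deposited counts for 100% of values (relative tolerance 1e-06). The tools named by the submitters' processing notes are STAR (2.7.10b) and RSEM, with no role stated, and the genome build and strand setting are not given in the sources used here. Libraries were directional and depleted of ribosomal RNA, per the labels' protocols.

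Counts were tested with edgeR 4.0.16 (R 4.3.3, limma 3.58.1), using filterByExpr (minimum count 10, minimum total 15), TMM, the robust quasi-likelihood F test and Benjamini-Hochberg adjustment over all genes tested, with a threshold of 0.05. Size steps and their differences used 1 fit of 36 libraries, and population differences a fit per size. Rows without a gene (unmapped 9.59%, multimapping 12.6%, no feature 20.5%, ambiguous 0.315% of an average library) were left out. Log2 CPM for correlations had a prior count of 2, and 0.5 reads were added before ratios. DESeq2 1.42.0, other scalings and filters, left-out libraries and a replicate block were alternatives. In simulated counts for 40_100um over 40um (17714 genes), 18%, 74% and 98% of genes changed 1.5-fold, 2-fold and 4-fold were recovered. For Pachón over surface at 300um (14848 genes) the shares were 26%, 38% and 88%. Only a small set of genes above a floor in level was changed, and each gene had the same spread in all libraries. In the data 73.5% of genes passed in the first step. The estimated spread (common dispersion) was 0.2458 at 40um and 0.05087 at 40_100um, so the simulated shares do not carry over to that step.

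Every member was named, and from each replication list the genes with the lowest adjusted p in each direction, up to 4 per size step and 2 per population contrast. The 3 genes most like each member were also named, except 1 that is not reported here. Members and lists were chosen with earlier results of these data known. The labels do not tie replicates to separate animals, so a p-value here reflects variation among libraries that may be technical. Counting error limits the lowest levels, where a member had as few as 8 reads.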

Additional observations from a re-analysis of the deposited data

Results flagged for a closer look

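The step of mcm3 from 40um to 40_100um oocytes differed between populations in a test of the difference itself, an interaction contrast in the edgeR fit of 36 libraries. The log2 difference of steps was 2.308 for Pachón minus surface (adjusted p = 0.025) and 2.288 for Molino minus surface oocytes (adjusted p = 0.0346). At 40um the cave libraries ranged from 6.027 to 17.1 CPM, below all 3 surface libraries, which had 42.48, 35.11 and 103.3 CPM. The first difference stayed past the threshold in 12 of 19 alternatives and the second in 7 of 18.

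The step of HLTF between the same sizes also differed between populations in the same test. Its log2 difference of steps was -2.993 for Pachón minus surface (adjusted p = 0.00345) and -2.96 for Molino minus surface oocytes (adjusted p = 0.00944). HLTF was named for its place among the PCNA partners and its difference was looked at after its values were seen.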

How the results depend on the processing

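Of 1764 member values with 1 library left out, 1682 kept their side of the threshold, 63 lost and 19 gained a call, and of 1477 values under other settings 1372 kept it, 44 lost and 61 gained a call; 0 called values reversed. All 7 members stayed called in the first step in most settings (6 or 7 with 1 library left out), and the second step kept its 3 calls in every left-out library. The cause of the changes below was not tested. Counts over all genes are given at the end as ranges over settings, not for each setting.

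Fitting only the 2 sizes compared gave 3 members called in surface, 5 in Pachón and 3 in Molino oocytes in the second step, against 0 each. In Pachón oocytes 2 of these were higher and 3 lower, and in the other populations all were lower. Library totals gave 2 in Pachón oocytes in that step, both higher. DESeq2 size factors gave 2 in Molino oocytes, both lower. The DESeq2 Wald test gave 2 in Pachón and 3 in Molino oocytes, all lower. For the mcm3 step differences, fitting only the 2 sizes gave 0 in both, and no expression filter 0 for Molino minus surface. In population comparisons, 1 fit of all 36 libraries gave 2 (Pachón over surface) and 3 (Pachón over Molino) at 40um, 1, 0 and 2 (Pachón over surface, Molino over surface, Pachón over Molino) at 40_100um, 0 and 1 (Pachón over surface, Pachón over Molino) at 100_300um and 1 and 1 at 300um. For Molino over surface, the DESeq2 Wald test gave 2 at 40um and 1 each at 100_300um and 300um, library totals 1 each at 100_300um and 300um, and leaving out 3 libraries with raised markers of other cells (surface 100_300um replicate 1, surface 300um replicate 2 and Molino 300um replicate 3) 1 at 100_300um. Removing Pachón replicate 2 at all sizes, chosen after seeing the data, gave 0 for the Pachón minus surface step difference, 0 for Pachón over surface and Pachón over Molino at 40um, and 1 each for those at 100_300um.

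With single libraries left out, the counts ran from 0 to 2 (Pachón minus surface) and 0 to 1 (Molino minus surface) for the step differences. They ran from 0 to 1, 0 to 2 and 0 to 1 at 40um and from 0 to 2, 0 to 1 and 0 to 1 at 100_300um (Pachón over surface, Molino over surface, Pachón over Molino), and from 0 to 1 for Molino over surface at 300um.

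With the replicate number as a block, 2 members were called in the second step in Pachón oocytes, 1 higher and 1 lower. In Molino oocytes 2 were called in that step, both lower, against 0 in each population without the block. For Molino over surface at 300um 1 was called. Libraries with the same number deviated together over 0.1 in 24 of 27 pairs across sizes with 40um and 25 of 27 without it, and in 10 of 36 pairs across populations. They correlated best with their own number in 26, 27 and 17 pairs. This is a hint from the data that the labels do not state, so the libraries were not taken as paired in the main test. In Pachón and surface oocytes every same-number pair of the first 2 steps was over 0.1.

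Counts over all genes moved by over 1.5 times in some settings: 73 (range 23 to 195) in the last step, 714 (2 to 2113), 1535 (130 to 4355) and 2809 (898 to 5413) in the second step in surface, Pachón and Molino oocytes, 1301 (299 to 2916) and 652 (160 to 2241) in the differences of the first step, and 458 (36 to 4209), 83 (2 to 1974) and 506 (14 to 3751) at 40um in Pachón over surface, Molino over surface and Pachón over Molino. In the same order of comparisons they were 3085 (1922 to 3975), 2258 (1192 to 2899) and 3874 (2310 to 4451) at 100_300um and 4931 (2563 to 5873), 2507 (1443 to 2961) and 5247 (2972 to 5580) at 300um. mcm3 and mcm6 are limited by counting in larger oocytes, where their lowest libraries had 9 and 8 reads.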
